A study of Mus musculus with 4 samples.

Results

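Dense distal clusters of accessible chromatin were described in hematopoietic stem cells (HSCs) of WT and Med23-deficient (KO) mice. Overlapping WT and KO peaks on the 19 autosomes were merged into 44263 regions, and the 25190 regions with a midpoint more than 2.5 kb from every annotated transcription start site were taken as distal. Distal regions separated by gaps of at most 12500 bp were joined, and runs of 5 or more regions were kept. This rule gave 126 clusters with 712 member regions, and left 24478 distal regions outside the clusters. A region with peaks of 1 list only is called WT-only or KO-only, and a region with peaks of both is called shared. Members were thus chosen by measured values, namely the presence and position of a peak in either list. The number of clusters, their crowding and their distance from start sites are therefore descriptions of what was chosen. The shares of WT-only, KO-only and shared members are likewise such descriptions.

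ATAC-seq, which reads out open chromatin by letting a transposase cut and tag it, was run on HSCs sorted from the bone marrow of adult C57BL/6 mice, with 5000 cells per library. WT mice carried the floxed Med23 allele on both chromosomes without cre, written WT(Med23floxp/flowp) in the labels, and KO mice carried the same alleles with Mx1-cre, written KO(Mx1-cre;Med23floxp/flowp). The 4 samples, 2 per genotype, are represented by 1 peak list per genotype, so no difference below has a replicate check and no p-value is given. Mx1-cre is induced by interferon, for which the study injected poly(I:C), and it acts in many tissues besides blood. Whether the WT mice of this assay also received poly(I:C) was not stated in the sources used here. The labels give the sort as LSK CD150+CD34-CD48- and the methods of the study as LSK CD150+CD48-.

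Mediator is the protein complex that links transcription factors on enhancers to RNA polymerase II, and Med23 is one of its subunits. Genes that define a cell type often lie among many enhancers that sit close together, and such dense stretches are known to carry much Mediator. In blood stem cells the factors at such elements include GATA, ETS, RUNX, MEIS and PU.1 proteins and the TAL1 complex, which binds E-box letters. An ATAC-seq peak marks open DNA and does not by itself show that an element is active.

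There were 37919 WT and 37639 KO peaks, and read totals per library are not given in the files. The number of fragments or reads at a summit, called pileup here, was recovered from the fold enrichment and the −log10 p of each peak. A whole-number pileup matched within a tolerance of 0.001 for 99.99% of the peaks of each list. At the deleted gene itself, a single promoter region was shared, with a pileup of 64 in WT and 85 in KO at Med23. The floxed part was not mapped here, so this region does not check the genotype labels. Of 10 stem cell markers, 7 had a promoter peak in both lists, among them Kit, Mecom, Hlf, Gata2, Meis1 and Fgd5. Slamf1, Procr and Ly6a had none in either list. Of 10 markers of mature blood cells, 3 had one in WT, among them Cd3d and S100a8, and 2 in KO, and of 10 markers of other tissues 1 had one in both (Cdh1).

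Sequences of 200 bp around the strongest summit are shown for 7 members that carry the results below. The first 4 are the strongest members of clusters at Tal1, Meis1, Etv6 and Vps13d, the fifth is the Bach2 member whose binomial interval lay above the median of all shared regions, and the last pair are the strongest members found in 1 list alone. All are from the plus strand of GRCm38.p6 (mm10), and capitals mark matches on either strand to the consensus motifs spelled out further on.
Tal1 member 7, chr4:115095766-115095965, shared, MEIS letters: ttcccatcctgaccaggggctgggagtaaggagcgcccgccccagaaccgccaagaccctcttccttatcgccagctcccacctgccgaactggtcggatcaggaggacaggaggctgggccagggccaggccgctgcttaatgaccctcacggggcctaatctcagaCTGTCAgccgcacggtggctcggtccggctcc
Meis1 member 5, chr11:18970027-18970226, shared, GATA and PU.1 letters: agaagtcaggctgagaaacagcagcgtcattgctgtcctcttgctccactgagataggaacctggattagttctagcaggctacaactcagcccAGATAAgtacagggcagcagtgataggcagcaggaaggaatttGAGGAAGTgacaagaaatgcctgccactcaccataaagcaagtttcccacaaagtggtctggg
Etv6 cluster C member 1, chr6:134186551-134186750, shared, E-box and MEIS letters: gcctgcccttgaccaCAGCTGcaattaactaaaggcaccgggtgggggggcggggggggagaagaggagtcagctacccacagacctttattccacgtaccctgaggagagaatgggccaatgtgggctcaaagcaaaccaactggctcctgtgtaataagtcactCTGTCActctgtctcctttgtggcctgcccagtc
Vps13d member 7, chr4:145241034-145241233, shared, C/EBP, PU.1 and E-box letters: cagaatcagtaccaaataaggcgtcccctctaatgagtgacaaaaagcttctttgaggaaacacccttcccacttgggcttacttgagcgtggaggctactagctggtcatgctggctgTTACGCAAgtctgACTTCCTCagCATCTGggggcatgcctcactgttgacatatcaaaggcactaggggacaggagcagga
Bach2 member 2, chr4:32343349-32343548, shared, MEIS and RUNX letters: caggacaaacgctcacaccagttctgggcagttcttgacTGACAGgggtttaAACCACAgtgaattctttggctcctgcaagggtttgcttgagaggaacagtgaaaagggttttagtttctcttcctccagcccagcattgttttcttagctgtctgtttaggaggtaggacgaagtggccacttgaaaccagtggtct
Cubn, WT-only member, chr2:13409860-13410059, E-box and AP-1 letters: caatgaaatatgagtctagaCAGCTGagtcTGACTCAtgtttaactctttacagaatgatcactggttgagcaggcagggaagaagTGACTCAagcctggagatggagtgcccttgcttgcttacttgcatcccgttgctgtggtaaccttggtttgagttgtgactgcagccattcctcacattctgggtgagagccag
Scgb1a1, KO-only member, chr19:9082565-9082764, CTCF letters: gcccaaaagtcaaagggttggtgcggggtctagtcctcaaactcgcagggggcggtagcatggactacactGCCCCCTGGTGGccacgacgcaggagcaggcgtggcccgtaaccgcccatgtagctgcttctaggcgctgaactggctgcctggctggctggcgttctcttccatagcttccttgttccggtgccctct
The Tal1 window lay 39.4 kb downstream of the Tal1 start in intergenic DNA, the Meis1 window 48.9 kb downstream in a Meis1 intron and the Etv6 window 151 kb downstream in an Etv6 intron. The Vps13d window lay 46.1 kb upstream of the Vps13d start, in an intron of Tnfrsf1b. The Bach2 window lay 105 kb and the Cubn window 81.9 kb downstream of the start of their gene. The Scgb1a1 window lay 5.29 kb downstream of that gene's start.

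The clusters were mostly at the lower limit of the rule. Of the 126 clusters, 80 held 5 regions, 22 held 6, 16 held 7, 4 held 8 and 4 held 9. Just outside the rule, 256 joined runs of 4 held 1024 regions, of which 17.9% were in the WT list only, 22.4% in the KO list only and 59.8% in both. The largest gap inside a cluster was 12454 bp and the smallest distance of a member from a start site 2504 bp. Clusters spanned a median of 29.2 kb (quartiles 24.6 and 38.9), from 15.2 to 65.8 kb, and 4.00 Mb in all. Gaps between neighbouring members had a median of 6.06 kb, against 36.4 kb between all neighbouring distal regions. Every autosome carried clusters, from 3 on each of chromosomes 7, 12 and 17 to 14 on chromosome 4.

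Members lay inside genes more often than other distal regions. The midpoint was in an intron for 445 of 712 members (62.5%, 95% Wilson interval 58.9 to 66.0) and for 50.4% of the distal regions outside clusters. It was intergenic for 35.5% of members against 45.5%, and exonic for 1.97% against 4.13%. All members of 65 clusters lay within a single protein-coding gene, while 37 clusters overlapped no protein-coding gene. These intervals, like all that follow, cover counting error only, since regions are not replicates. Members and the other distal regions were close in GC content (medians 48.7 and 47.2%) and in repeat-masked bases (10.8 and 11.8%).

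**Figure D1:**
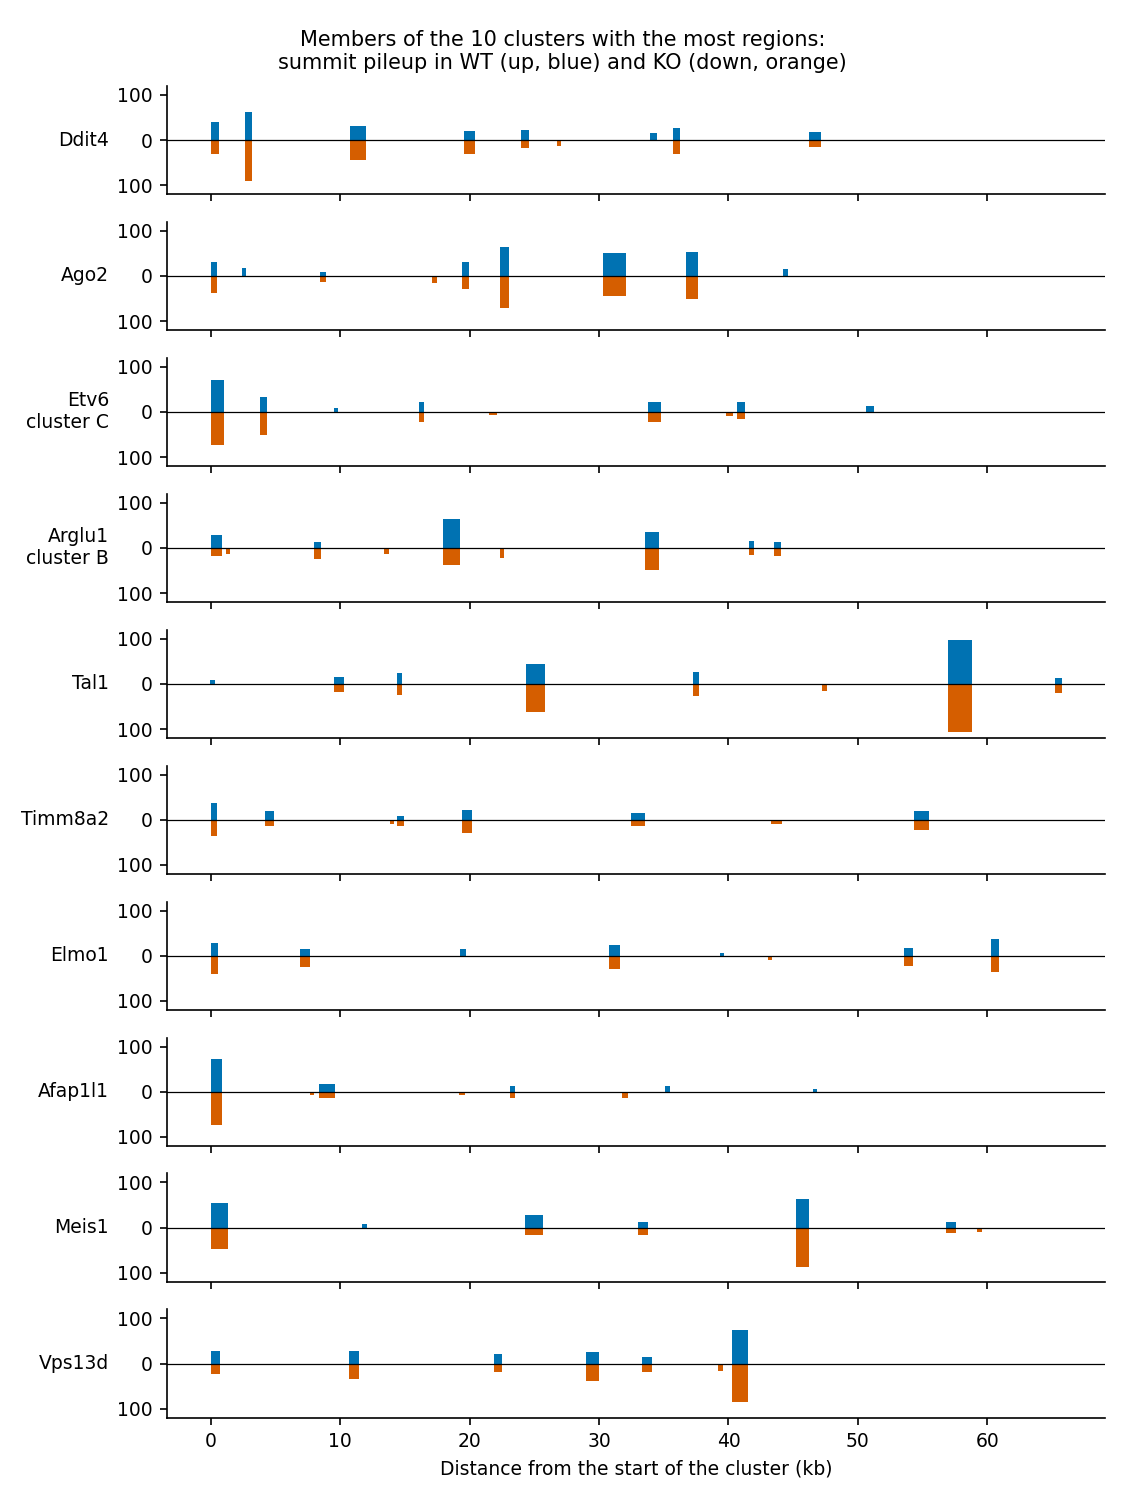
Position of each member, in kb from the start of its cluster (x axis), against its summit pileup in fragments or reads (y axis), in WT (blue, upward) and KO (orange, downward), for the 10 clusters with the most regions. Of the 16 clusters tied at 7 regions, Meis1 and Vps13d are shown because their peaks covered the most bases. A bar on one side only is a member found in 1 list, and bars are drawn at the width of the region or at 0.35 kb where it is narrower. In each of these clusters the highest bar was present in both lists, and the highest of all was at Tal1 (97 in WT and 106 in KO).

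Each cluster was linked to the protein-coding gene with the nearest start site, and 124 genes were linked, which is 0.597% of 20780 autosomal coding genes. The linked start was a median of 10.4 kb away, lay inside the span in 26 clusters and beyond 50 kb in 16. Nearness does not show which gene a region acts on. Of 30 transcription factors and related regulators of blood stem cells, 7 were linked (23.3%), among them Tal1, Meis1, Etv6, Fli1, Bcl11a and Msi2, the last an RNA-binding protein. Of 29 stem cell surface and signalling genes, 2 were linked (6.90%), Cd47 and Itga6. Of 22 lymphoid genes 1 was linked (Bach2), and of 22 megakaryocyte and erythroid genes 1 (Tal1). None of 22 myeloid genes and none of 21 markers of other tissues was linked. With 0.597% of all coding genes linked, lists this short cannot show a lack of clusters. Etv6 was linked to 3 clusters, and Fli1 and Arglu1 to 2 each. The 7 stem cell regulators were the same whether genes were counted by the nearest start, by a start within 50 kb (1.02% of all coding genes) or by a gene body that overlapped the cluster (0.491% of all coding genes). The stem cell surface and signalling genes were not, since only Cd47 (3.45%) had a start within 50 kb and none had an overlapping gene body.

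The Tal1 cluster was the longest. Tal1 is the basic helix-loop-helix factor needed to form blood stem cells. The cluster ran over 65.8 kb (chromosome 4, 115038171 to 115103986) across Stil, Tal1 and Pdzk1ip1, and 2 promoter regions lay within the span and were not members. Its 8 members were 6 shared, 1 WT-only and 1 KO-only. The pileups of the shared members ran from left to right as 16, 24, 44, 27, 97 and 13 in WT and as 19, 25, 63, 27, 106 and 21 in KO. The fifth of these, whose sequence is printed above, was the highest shared member in both lists. The single-list members were weak, at 8 in WT and 15 in KO. Summed over the shared members the pileup was 221 in WT and 261 in KO. After scaling to the genome-wide background of each list, the log2 KO to WT ratio was 0.33 (95% binomial interval 0.06 to 0.59). The median of this ratio over all shared autosomal regions was 0.17, which lay inside the interval.

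Meis1 encodes a homeodomain factor that acts in blood stem cells. The Meis1 cluster (chromosome 11, 18924472 to 18983971) held 7 members, all in Meis1 introns, of which 5 were shared. They stood at 55, 27, 12, 64 and 13 in WT and at 47, 17, 17, 88 and 12 in KO, so some were lower and some higher in KO. Their sums of 171 (WT) and 181 (KO) gave a log2 ratio of 0.17 (−0.14 to 0.48).

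Etv6 and Fli1 encode ETS family factors that act in blood stem cells. The 3 Etv6 clusters held 19 members, 5 WT-only, 4 KO-only and 10 shared. One cluster lay upstream of the gene and the other two in its introns. The shared members summed to 252 in WT against 315 in KO, which gave a log2 ratio of 0.41 (0.16 to 0.65). This interval included the median of 0.17 of all shared autosomal regions. By cluster, the log2 ratio was 0.62 (−0.02 to 1.27) in A and 0.22 (−0.08 to 0.53) in C. In B, with 2 shared members that summed to 46 in WT and 76 in KO, it was 0.81 (0.26 to 1.37). The interval of B alone thus lay above that median. In the largest, Etv6 cluster C with 9 regions (chromosome 6, 134185951 to 134237182), the shared members had 70, 34, 23, 21 and 22 in WT and 73, 52, 23, 23 and 16 in KO. The strongest member was thus at nearly the same pileup in both lists. The 2 Fli1 clusters held 10 members, of which 5 were shared, with a summed pileup of 120 in WT against 169 in KO and a log2 ratio of 0.58 (0.23 to 0.93). This interval lay above the median of 0.17. The interval of Fli1 cluster B did so too, at 0.74 (0.28 to 1.22), and that of cluster A included the median, at 0.37 (−0.17 to 0.90). The strongest Fli1 member, upstream of the gene, had 50 in WT and 79 in KO.

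Clusters also lay at other genes of stem cells. Msi2, an RNA-binding regulator of stem cells, had 5 shared members at 22, 17, 36, 11 and 22 in WT and 27, 20, 29, 9 and 14 in KO, and 1 KO-only member at 12. The Msi2 log2 ratio of the sums was −0.04 (−0.45 to 0.37), which with Cdkn2aipnl was at the low end of the 25 clusters with 5 or more shared members that had 1 peak of each list. At Cd47, which protects cells from phagocytosis, 3 shared members stood at 16, 9 and 12 in WT and 13, 13 and 10 in KO. At Itga6, an integrin subunit whose start lay 74593 bp away, the shared members stood at 16 and 18 in WT and 22 and 15 in KO. Neither cluster held a member above 22 in either list.

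Several of the largest clusters lay at genes of no list. The Ddit4 cluster (chromosome 10, 59896813 to 59943946), near the gene of a stress-induced inhibitor of mTORC1, held 7 shared, 1 WT-only and 1 KO-only member. Its highest member had 63 in WT and 91 in KO. The Ago2 cluster (chromosome 15, 73117793 to 73162438), inside the gene of the small RNA guided slicer Argonaute, held 6 shared, 2 WT-only and 1 KO-only member. Its 3 highest members had 65, 50 and 52 in WT and 71, 45 and 52 in KO, so they differed little. The cluster nearest to the Vps13d start, with 5 of 7 members in the TNF receptor gene Tnfrsf1b, held 6 shared members at 27, 29, 22, 26, 15 and 74 in WT and 22, 33, 19, 39, 18 and 86 in KO. At Nid1, a basement membrane gene with Lyst also within 50 kb, 4 shared members summed to 204 in WT and 229 in KO. Ddit4, Ago2, Tal1, Nid1 and Vps13d had the highest summed pileups of all 126 clusters.

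The 10 largest clusters also included those at Elmo1, Timm8a2 and Afap1l1. Elmo1 encodes a partner of Dock proteins in Rac activation and cell movement. All 8 members of its cluster (chromosome 13, 20120586 to 20181539) lay in introns of the gene, and the 5 shared ones stood at 28, 14, 24, 18 and 37 in WT and at 41, 26, 29, 22 and 35 in KO, 4 of them higher in KO. The log2 ratio of the sums was 0.42 (0.07 to 0.78), an interval that included the median of 0.17 of all shared autosomal regions. The 2 WT-only members had 14 and 6 and the KO-only member had 10. At Timm8a2, which lies beside Ubac2, 6 shared members stood at 38, 20, 9, 22, 16 and 19 in WT and at 35, 13, 13, 29, 14 and 22 in KO, 3 higher and 3 lower. At Afap1l1, an actin-binding adaptor gene, 1 member was far above the rest, with 72 in WT and 73 in KO. Each of the 7 weaker Afap1l1 members had at most 18 in either list.

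In 9 clusters every member was shared, at Tspan14, Serbp1, Pde4b, Itprip, Irf2, Pip4k2a, Cdkn2aipnl, Mrln and Smg6. Irf2 encodes a factor that restrains interferon signalling in blood stem cells. Its 5 members had 16, 50, 37, 12 and 42 in WT and 30, 43, 41, 12 and 50 in KO, a summed log2 ratio of 0.25 (−0.07 to 0.57). The 6 members at Tspan14, a tetraspanin gene, had 14, 52, 17, 29, 25 and 38 in WT and 12, 76, 18, 27, 34 and 28 in KO, a summed log2 ratio of 0.24 (−0.06 to 0.54). In both clusters some members were higher and some lower in KO.

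Members as a whole were slightly stronger than other distal regions by pileup and weaker by fold enrichment. The median pileup of members was 16 in WT and 17 in KO, against 14 and 16 outside clusters. The median of the authors' fold enrichment over local background was 5.38 in WT and 6.12 in KO, against 5.90 and 6.71. The local background in the denominator was higher at members in both lists, with the values given further on.

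Of the 712 members, 407 were shared, 133 were WT-only and 172 were KO-only. WT-only members made up 18.7% (16.0 to 21.7), against 23.7% of all distal regions and 23.8% of those outside clusters. KO-only members made up 24.2% (21.2 to 27.4), against 22.3% and 22.2%. Shared members made up 57.2% (53.5 to 60.7), against 54.1% and 54.0%. The interval for WT-only members lay below the share outside clusters, and the interval for KO-only members included it. Peaks of either list counted toward the rule, so WT-only and KO-only peaks themselves brought regions into clusters. These shares are therefore descriptions of what was chosen, and the intervals cannot test whether clusters differ in balance from other distal regions. With only peaks of a −log10 q of at least 5, the members were 14.4% WT-only and 19.3% KO-only, against 15.1% and 27.3% outside clusters, so neither share then stood above the other regions. Of 252 members at the ends of clusters 53 were WT-only and 61 KO-only, and of 460 inner members 80 and 111.

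Single-list members were weak in both genotypes. WT-only members had a median pileup of 11 (6 to 26) and KO-only members of 11 (6 to 30), whereas shared members had a median of 18 in WT and 21 in KO. Strength was taken as the higher of the 2 scaled pileups, and all distal regions were divided into 3 groups of equal number at 9.78 and 16.7 times the genome-wide background. In the weakest group, 36.3% (30.0 to 43.2) of 201 members were WT-only and 49.8% (42.9 to 56.6) were KO-only, whereas outside clusters the order was reversed, at 47.6% and 36.7%. In the strongest group 92.4% of 275 members and 91.1% of the others were shared. The difference in balance was therefore among weak regions, and it too describes members chosen by peaks of either list. The local background at member summits was higher in WT than in KO, with medians of 2.13 and 1.86, and was 1.44 and 1.36 outside clusters. Its part in the balance of weak members was not tested.

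**Figure D2:**
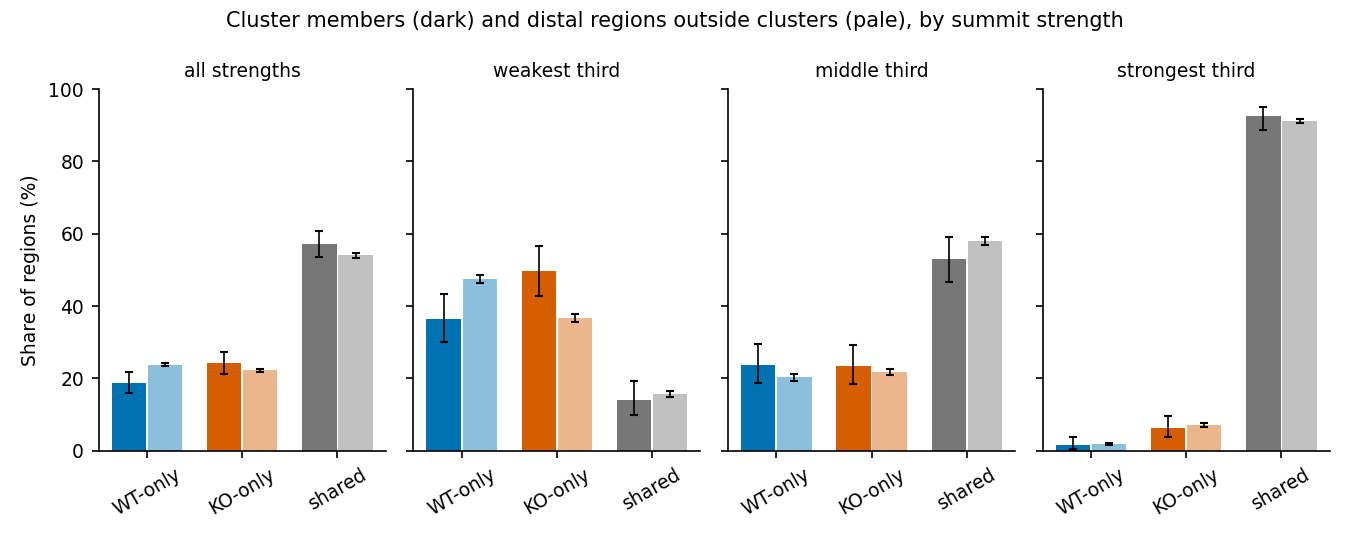
Share of regions (y axis, %) that were WT-only (blue), KO-only (orange) or shared (grey), among cluster members (dark bars) and distal regions outside clusters (pale bars), for all regions and in 3 groups of summit strength. Error bars are 95% Wilson intervals for counting error. Members were chosen by peaks of either list, so their shares are descriptions of what was chosen. In the weakest group KO-only members (49.8%) outnumbered WT-only members (36.3%), and outside clusters the reverse held (36.7% and 47.6%).

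Most clusters mixed both kinds of single-list member. Of the 126 clusters, 69 held WT-only and KO-only members, 33 held KO-only members without WT-only ones, 15 the reverse, and 9 were shared in every member. KO-only members were more numerous in 54 clusters, WT-only members in 34, and the numbers were equal in 38. KO peaks covered more bases than WT peaks in 80 clusters and fewer in 46, for 336 kb in KO and 314 kb in WT. The smallest peak was 224 bp wide in the WT list and 249 bp in the KO list. The part of this limit in the covered bases was not tested, and no such balance is given for other distal regions. Only the clusters at Fut8 and Foxp1 had no shared member. Foxp1 encodes a forkhead factor of lymphoid and myeloid cells, and its cluster held 3 WT-only members at 19, 16 and 7 and 2 KO-only members at 17 and 12.

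When the rule was applied to each list by itself, the WT list gave 42 clusters with 232 members and the KO list 62 with 345. These were 1.18% of 19648 distal WT regions and 1.78% of 19343 distal KO regions. Of these clusters 22 overlapped between the lists, 52.4% of the WT ones and 35.5% of the KO ones. With the strongest 15000 distal regions of each list the numbers were closer, at 23 clusters in WT and 25 in KO, and with the strongest 10000 they were 8 and 9. Of the 126 clusters, 33 held 5 or more regions in both lists, 15 in WT alone, 31 in KO alone and 47 in neither, so these 47 met the rule only once the lists were merged.

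**Figure D3:**
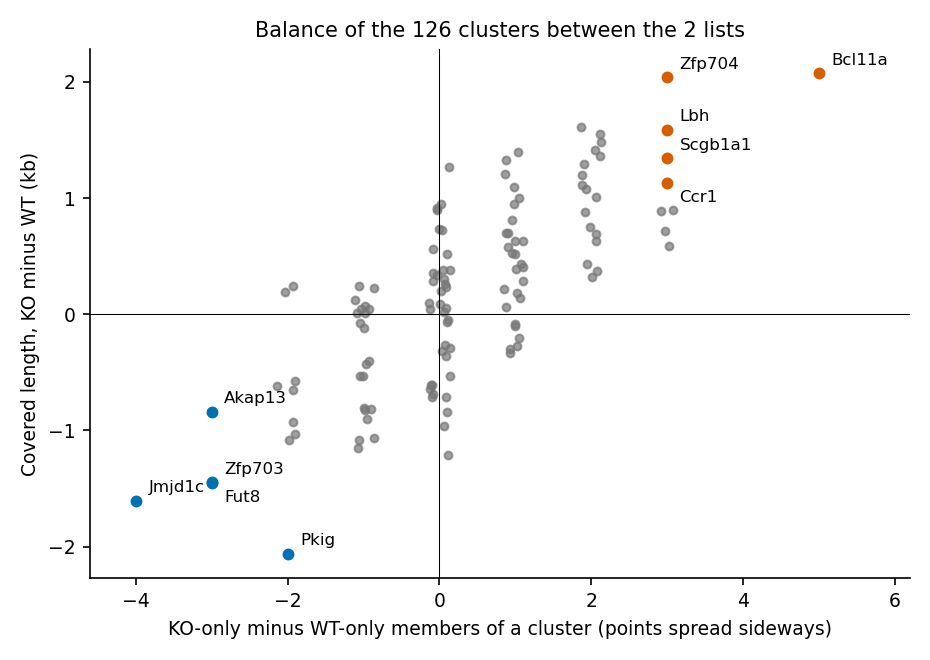
Each point is 1 of the 126 clusters, placed by its number of KO-only minus WT-only members (x axis, points spread sideways to separate them) and by the length covered in KO minus that in WT (y axis, kb). Orange and blue points with names are the 5 clusters with the largest KO-only and the 5 with the largest WT-only excess, with ties ordered by the difference in covered bases, which ranged from Bcl11a (5 more KO-only members) to Jmjd1c (4 more WT-only members).

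The largest KO-only excess was at Bcl11a, which encodes a zinc finger repressor of fetal globin genes that also acts in stem cells and lymphoid cells. The cluster (chromosome 11, 24099030 to 24139973) lay inside the gene and held 7 members. The 5 KO-only members had pileups of 13, 8, 11, 12 and 14 in KO. The 2 shared members stood at 18 and 56 (WT) and at 26 and 69 (KO). All 5 KO-only members were therefore weaker than both shared ones. Peaks covered 1143 bp in WT against 3218 bp in KO. The log2 ratio of the shared members was 0.45 (−0.01 to 0.90). These values chose the cluster and are given as a description.

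The next clusters by KO-only excess were at Zfp704, Lbh, Scgb1a1 and Ccr1, each with 3 KO-only and no WT-only members. The clusters at Fmnl2, Hk1 and Gm45521 and Arglu1 cluster B had the same counts, and were placed after these because KO peaks exceeded WT peaks by fewer bases. At Zfp704, a zinc finger gene, the KO-only members had 11, 18 and 11, and the shared members 34 and 14 in WT and 24 and 19 in KO. At Lbh, a transcriptional cofactor gene, the KO-only members had 8, 10 and 9, and at Ccr1 they had 10, 12 and 17. At Scgb1a1, a secretory protein gene of the airway, 3 of 5 members lay in the neighbouring scaffold gene Ahnak, and the cluster held the strongest KO-only member of all (pileup 30). Summed over the shared members, the log2 ratio was 0.61 (0.11 to 1.12) at Scgb1a1, −0.07 (−0.70 to 0.55) at Zfp704, 0.13 (−0.37 to 0.63) at Lbh and −0.13 (−0.67 to 0.41) at Ccr1, a chemokine receptor gene. At each of these genes the interval included the median of 0.17 of all shared autosomal regions.

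The largest WT-only excess was near Jmjd1c, a gene of the histone demethylase family, with all 5 members inside the neighbouring gene Reep3. Its 4 WT-only members had pileups of 9, 10, 8 and 8, and the shared member had 25 in WT and 19 in KO. At Fut8, which encodes the enzyme of core fucosylation, 4 WT-only members had 10, 8, 6 and 7 and 1 KO-only member had 11. At Akap13, a kinase anchor gene, 3 WT-only members had 7, 20 and 14, and at Pkig, a gene of a protein kinase A inhibitor, 3 had 12, 12 and 16. The excess at Pkig, of 2 members, was shared by 8 other clusters, in which the difference in covered bases was smaller. At Zfp703, 3 WT-only members had 19, 9 and 10, and the 2 shared ones summed to 27 in WT and 25 in KO. At Jmjd1c and Fut8 these members lay at or near the smallest pileup of any member, which was 6 in both lists.

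The strongest member in the WT list alone was at Cubn, the gene of an endocytic receptor, with a pileup of 26. The Cubn cluster held another 4 members that were shared and summed to 132 in WT and 169 in KO. The strongest single-list members of both genotypes thus lay beside shared members, as did those of every cluster except Fut8 and Foxp1.

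Shared members with 1 peak of each list numbered 405. Their pileups summed to 9516 in WT against 10748 in KO. On the scale of the genome-wide background this was a log2 ratio of 0.26 (0.22 to 0.30). The median log2 ratio was 0.24, against 0.22 for the other distal regions and 0.12 for regions near start sites, and the median of all shared autosomal regions was 0.17. The median of the members was thus close to that of the other distal regions. Relative to that median of 0.17, 45 members were past 1.5-fold higher in KO (11.1%, 8.41 to 14.5) and 32 past 1.5-fold lower (7.90%, 5.65 to 10.9). Among all distal shared regions these shares were 11.0% and 7.92%, and among all autosomal ones 7.56% and 7.92%, so the members' shares were those of distal regions.

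Most of these differences lay within counting error. The 95% binomial interval of the ratio lay above the median for 9 members (2.22%) and below it for 3 (0.741%). Among all distal shared regions these shares were 2.41% and 0.995%, and among all autosomal ones 1.91% and 1.54%. The 9 higher members were at Rnf217 (24 in WT and 57 in KO), Bach2 (17 and 36), Smg6 (16 and 32), Lims1 (27 and 52), Ubash3b (17 and 36), Kcnn4 (38 and 71), Mgst2 (21 and 39), Retreg1 (42 and 72) and Fli1 (50 and 79). The 3 lower members were at Arglu1 (65 in WT and 39 in KO), Akap13 (50 and 33) and Ttc39a (53 and 36). Rnf217 encodes a ubiquitin ligase, and its member had the largest log2 ratio of all, 1.33 (0.62 to 2.09). The other 3 shared members of the Rnf217 cluster had 15, 16 and 9 in WT and 15, 20 and 11 in KO, so the difference there was at 1 member.

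**Figure D4:**
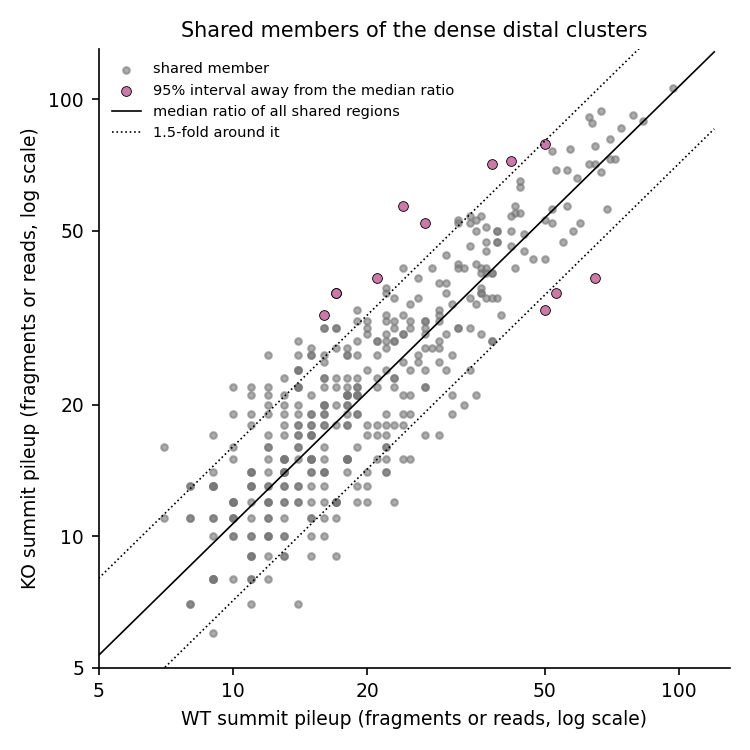
Summit pileup of each of the 405 shared members in WT (x axis) and KO (y axis), in fragments or reads on log scales. The solid line is the median ratio of all shared autosomal regions (log2 0.17), the dotted lines are 1.5-fold around it, and outlined points are the 12 members whose 95% binomial interval lay away from that median. Most points with a pileup below 20 that cross a dotted line are not outlined.

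At the level of whole clusters, 25 had 5 or more usable shared members, and their log2 ratios of summed pileups ranged from −0.04 to 0.73. None was past 1.5-fold of the median. The interval lay above the median for 3, at Smg6, Jak1 and Lims1, and below it for none. Over the 124 clusters with any usable shared member, the interval lay above the median in 8 (6.45%) and below it in 0. Besides the 3 just named, these were Etv6 cluster B, Fli1 cluster B and the clusters at Rnf217, Kcnn4 and Retreg1. The median used here was the 0.17 of all shared autosomal regions, whereas distal regions outside clusters had 0.22. At Kcnn4 and Retreg1 the lower limit of the interval was 0.17, which is below 0.22. No such share was counted for sums of other distal regions. Smg6, an endonuclease gene of nonsense-mediated decay, had 5 shared members at 20, 10, 11, 9 and 16 in WT and 31, 19, 13, 8 and 32 in KO. The log2 ratio was 0.73 (0.27 to 1.20). Of these 5 members 4 lay in Smg6, and the cluster also overlapped Hic1. The member at 16 and 32 lay in an exon, 2909 bp from a start site. Jak1, the kinase gene of cytokine receptors, had 5 shared members at 17, 16, 7, 19 and 16 in WT and 30, 26, 16, 21 and 23 in KO. The log2 ratio was 0.71 (0.28 to 1.15), all 5 were higher in KO, and the cluster also held 2 WT-only members at 13 and 10. Lims1, an integrin adaptor gene, had shared members at 10, 67, 20, 15 and 27 in WT and 12, 94, 14, 26 and 52 in KO. The log2 ratio was 0.60 (0.28 to 0.92), and 1 of the 5 was lower in KO.

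The Bach2 cluster, in introns of the gene of a repressor that guides lymphoid development, followed with a log2 ratio of 0.54 (0.14 to 0.94). Its shared members had 28, 17, 18, 13 and 16 in WT and 27, 36, 19, 14 and 30 in KO. Members 2 and 7 were higher in KO, and the other 3 shared members differed by 1 count each. It also held 2 WT-only members at 18 and 8. Mrln, a muscle micropeptide gene with 2 of the 5 members in the neighbouring Ccdc6, had a ratio of 0.47 (0.07 to 0.88).

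The lowest cluster ratios lay near 0. Beside Msi2 they were Cdkn2aipnl at −0.04 (−0.48 to 0.39), Arglu1 cluster B at −0.01 (−0.33 to 0.31), the protocadherin gene Pcdh7 at 0.09 (−0.24 to 0.42) and the mitochondrial import gene Timm8a2 at 0.11 (−0.26 to 0.48). Arglu1 cluster B (chromosome 8, 8950977 to 8995046) lay 260 kb from the start of Arglu1, a splicing-related gene, with no coding gene start within 50 kb. Its strongest member stood at 65 in WT against 39 in KO, with a log2 ratio of −0.65 (−1.26 to −0.06), while a weaker one had 35 and 50. The cluster also held 3 KO-only members at 13, 13 and 22 and no WT-only member. Of the shared members of this cluster, only the strongest was among those whose interval lay away from the median. Opposite directions within the cluster are therefore not shown.

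Consensus motifs were counted in the 200 bp around the strongest summit of each region, on both strands. GATA was AGATAA or TGATAA, ETS was ACAGGAAG or ACCGGAAG, PU.1 was GAGGAAGT, RUNX was TGTGGTT or TGCGGTT, and the E-box of TAL1 was CAGCTG or CAGATG. The C/EBP motif was TTGCNNAA. The AP-1 motif was TGACTCA, and for CTCF it was CCANNAGNNGGC. For MEIS factors the letters TGACAG were used. The composite of TAL1 with a GATA factor was CTGNNNNNNNNGATAA or CTGNNNNNNNNNGATAA. The composite overlaps the GATA letters where its last 6 letters match them. A match is a description of the letters and does not show binding.

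For most motifs the interval of the members included the share in other distal regions. GATA letters were found in 17.7% of members (15.1 to 20.7) and 19.6% of the other distal regions, against 7.91% near start sites. E-box letters were in 28.7% and 28.3%, MEIS letters in 16.0% and 15.6%, ETS letters in 8.99% and 8.34%, and RUNX letters in 12.1% and 14.1%. The composite was in 2.81% and 2.97%, C/EBP letters in 9.27% and 9.62% and AP-1 letters in 9.13% and 8.09%. In these windows the interval of the members lay away from the share outside clusters for 2 motifs. PU.1 letters were in 11.7% of members (9.50 to 14.2) against 8.61%, and CTCF letters in 4.21% (2.97 to 5.95) against 7.10%. Both also lay away in 400-bp windows, at 13.6% (11.3 to 16.3) against 10.9% for PU.1 and 5.20% (3.79 to 7.08) against 8.48% for CTCF. In 100-bp windows CTCF still did, at 1.69% (0.967 to 2.92) against 4.83%, but the PU.1 interval included the outside share, at 7.58% (5.86 to 9.76) against 5.87%. RUNX letters at 6.46% (4.88 to 8.51) against 8.85% and MEIS letters at 10.7% (8.61 to 13.2) against 8.52% lay away in the 100-bp windows alone.

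In the 200-bp windows the difference at PU.1 was found in stronger regions. In the strongest group, PU.1 letters were in 15.6% of members (11.8 to 20.4) and 10.9% of others, and in the weakest group in 5.47% (3.08 to 9.53) and 5.99%. Shared members carried them in 14.5%, WT-only members in 7.52% and KO-only members in 8.14%. RUNX letters were likewise in 15.5% of shared members, 8.27% of WT-only and 6.98% of KO-only members. WT-only and KO-only members thus had similar shares of both, and both were weaker regions than the shared ones. CTCF letters were in 2.95% of shared, 6.77% of WT-only and 5.23% of KO-only members. They were in 3.98% (2.03 to 7.66) of the weakest group of members against 6.95% outside clusters. The middle group had 5.51% (3.25 to 9.20) against 8.79%, and the strongest 3.27% (1.73 to 6.10) against 5.56%. Members were lower in all 3 groups of strength, but each interval included the outside share. For AP-1 and RUNX letters the interval in the weakest group lay away from the outside share. AP-1 letters were there in 11.9% of members (8.16 to 17.2) against 6.52%, and RUNX letters in 5.97% (3.45 to 10.1) against 10.4%. The strongest KO-only member, printed above, was one of the 30 members with CTCF letters.

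**Figure D5:**
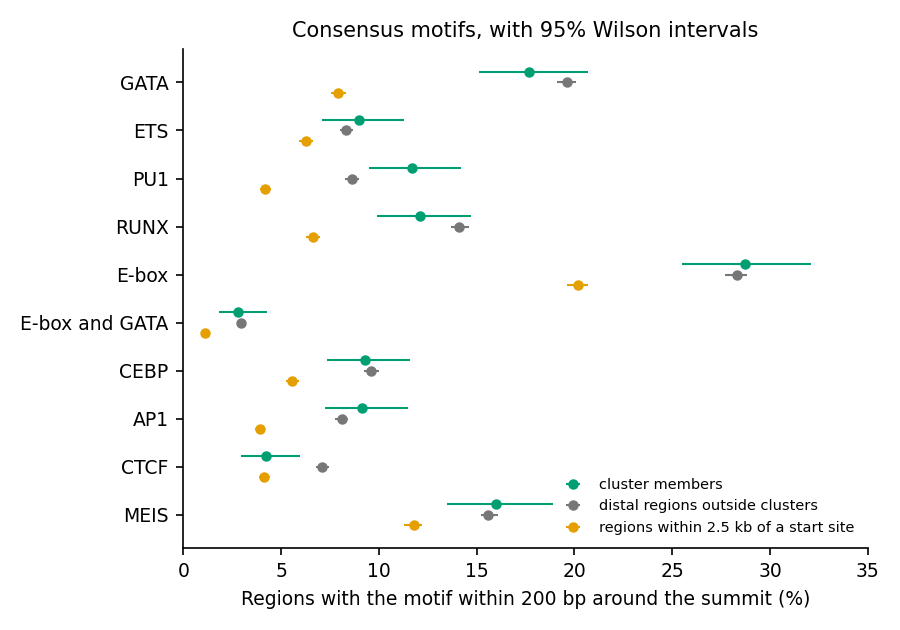
Share of regions (x axis, %) with each consensus motif (y axis) in the 200 bp around the summit, for cluster members (green), distal regions outside clusters (grey) and regions within 2.5 kb of a start site (orange), with 95% Wilson intervals. The green and grey points lie apart for PU.1 (11.7 and 8.61%) and CTCF (4.21 and 7.10%).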

How the data were processed

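Accessible regions were taken from ATAC-seq of 4 samples, for which 1 peak list per genotype was deposited. By their methods and processing notes, the authors trimmed reads with Trim Galore, aligned them to mm10 with Bowtie2, used Picard and called peaks with MACS2 without a fragment model. Versions and whether replicates were pooled are not given in the sources used here. The deposited lists give the authors' fold enrichment, the authors' −log10 p and −log10 q values (p-value and q-value), and a display score from the authors' caller that was not used. The separate deposited summit lists hold the same summits and −log10 q.

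Peaks overlapping by at least 1 bp were merged. Start sites came from GENCODE M21 and sequence from GRCm38.p6 in RefSeq. Pileup and local background were solved from fold enrichment and −log10 p under a Poisson model, and the genome-wide background was the median of the 1000 smallest local backgrounds (1.19 in WT, 1.13 in KO). The log2 KO to WT ratio divides each pileup by that background, with an exact 95% binomial interval and no pseudocount. The call by that interval was added after the data were seen. Shares have 95% Wilson intervals. Read depth is unknown. The recovery of pileups and the joining of regions were tested on simulated data. Alternatives varied the q filter, distance, gap, smallest number of regions, overlap, scaling and motif window (100, 200 or 400 bp).

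Named clusters were the 10 with the most regions, 5 at each end of the KO-only minus WT-only count, 5 with the highest summed pileup, 5 at each end of the ratio, with ties ordered by covered bases, and those at genes of 6 lists, except some that are not reported here. Clusters named for members past the interval, Foxp1, Cubn and others named beside these were chosen after their values were seen. Members and lists were chosen with earlier results of these data known. Python 3.11.15, numpy 2.4.6, pandas 2.3.3 and scipy 1.17.1 were used.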

Additional observations from a re-analysis of the deposited data

How the results depend on the processing

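The number of clusters followed the rule closely. It was 126 with 712 members as reported, and 33 with 181 members at a −log10 q of at least 5, 2 with 10 at 10 or more, 213 with 1233 at more than 1 kb from a start site, 198 with 1122 for coding start sites, 8 with 41 for gaps of at most 6 kb, 562 with 3532 for gaps of at most 25 kb, 382 with 1736 for 4 or more regions and 8 with 68 for 8 or more. WT peaks alone gave 42 with 232 and KO peaks alone 62 with 345. At a −log10 q of at least 5, the members were 14.4% WT-only, 19.3% KO-only and 66.3% shared, against 15.1%, 27.3% and 57.7% of the other distal regions, so that the KO-only share then lay below theirs. The 10 members left at a −log10 q of at least 10 were 0% WT-only, 50.0% KO-only and 50.0% shared. Outside clusters these shares were 11.1%, 32.7% and 56.2%, and the KO-only members all lay in the Jak1 cluster. Members of clusters of 8 or more regions were 14.7%, 20.6% and 64.7%, against 23.7%, 22.3% and 54.1% of the other distal regions. Shared members fell to 46.8% when both peaks had to overlap by at least 50% of their length and to 43.1% for summits within 100 bp, against 44.0% and 41.4% outside clusters. The median log2 ratio was 0.15 from raw pileups and 0.29 from the authors' fold enrichment, while that of all shared regions was 0.08 and 0.26. The interval rule, added after the data were seen, called 9 members higher and 3 lower in place of 45 and 32. The cause of these changes was not tested.

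With gaps of at most 25 kb, 14 stem cell transcription factors were linked in place of 7, while all linked coding genes became 2.82%. Linked myeloid genes then became 1 in place of 0 and lymphoid genes 2 in place of 1. Megakaryocyte and erythroid genes became 3 in place of 1. The 2 linked stem cell surface and signalling genes became 1 by a start within 50 kb and 0 by gene body. The PU.1 difference was lost in 100-bp windows. No paired analysis was possible because the lists carry no replicate number and there is 1 per genotype, and leaving out a replicate could not be run. Weak peaks limit the single-list classes, since read totals are unknown.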

Other observations

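Chromosome X, which the autosomal rule left out, held 3 clusters with 22 members when the same rule was applied to it, after the data were seen. These were 3.59% of its 613 distal regions, against 2.83% of the autosomal ones. The first, on chromosome X from 50597339 to 50623482, overlapped Firre, the gene of a long noncoding RNA with CTCF-rich repeats. It held 9 regions, 6 shared, 1 WT-only and 2 KO-only, with a summed pileup of 310 in WT and 379 in KO. The second, from 75729668 to 75759346, overlapped the noncoding gene 4933407K13Rik and held 8 regions, 7 of them shared, with 212 in WT and 192 in KO. The third, from 140505680 to 140538049, lay 4619 bp from the start of Tsc22d3, a glucocorticoid-induced leucine zipper gene, and held 5 regions, 3 shared and 2 WT-only, with 162 in WT and 141 in KO.

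At a −log10 q of at least 10, 2 clusters met the rule, linked to Jak1 and Vps13d. The one at Vps13d had 5 shared regions. The one at Jak1 had 5 regions that were all KO-only at that limit, whereas at the deposited threshold 5 of the 7 members at Jak1 were shared.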
